A study of Mus musculus with 24 samples.

Results

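The interferon-inducible GTPases described here are 10 mouse genes, namely Gbp2, Gbp3, Gbp4 and Gbp6 of the guanylate-binding proteins, Irgm1, Irgm2, Igtp and Iigp1 of the immunity-related GTPases, and the dynamin-like Mx1 and Mx2. Every array probe assigned to one of them by gene identifier was taken, and those with a detection p-value (the chance of such a signal from a negative control bead) under 0.01 on 3 or more of the 24 arrays went into the tests. Of 18 such probes, 15 were tested, and they represented 8 of the 10 genes, against 16498 tested of 45281 probes and 8875 tested of 19057 named genes on the whole array. The probes of Gbp4 and Gbp6, and 1 of 4 Iigp1 probes, were detected on 0 of 24 arrays. Gbp2 (142620663 to 142638008) and Gbp3 (142560016 to 142573213) lie on chromosome 3 of GRCm38.p6, Irgm2 (58214977 to 58222783), Igtp (58199556 to 58207592) and Irgm1 (48865245 to 48871420) on chromosome 11, Mx1 (97447035 to 97462906) and Mx2 (97536081 to 97560901) on chromosome 16, Gbp4 and Gbp6 on chromosome 5 and Iigp1 on chromosome 18. Gbp4 is also an older name of Gbp3, so probes were matched by gene identifier and not by symbol.

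RNA came from bone marrow-derived macrophages of adult female C57bl/6J mice, hybridised to Illumina MouseWG-6 V2 arrays. All animals carried the floxed Gch1 allele. In Gch1fl/flTie2cre animals the Tie2 promoter drives Cre in endothelial and bone marrow-derived cells and removes exons 2 and 3 of Gch1, which encodes GTP cyclohydrolase 1, the first enzyme of tetrahydrobiopterin synthesis, and their GCHfl/fl littermates without Cre are called wild-type. Cells of 3 animals per genotype (wild-type animals 2, 3 and 6; Gch1fl/flTie2cre animals 1, 4 and 5) grown in L929-conditioned medium and starved of serum before the stimulus, were sampled at 0 h and after 2, 8 and 24 h with LPS and 10 ng/ml IFN-γ, which gave 8 groups of 3 arrays. There was no group with 1 stimulus alone and no unstimulated culture at later times, so LPS, IFN-γ and time in culture cannot be told apart.

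IFN-γ signals through its receptor and JAK kinases to GAS elements in gene promoters, while type I interferon signals through the ISGF3 complex, which binds ISRE elements that also accept interferon regulatory factors (IRF). Both routes switch on the GTPase families studied here, which give macrophages resistance against pathogens inside the cell. Guanylate-binding proteins coat and break open pathogen vacuoles and cytosolic bacteria. Effector immunity-related GTPases such as Iigp1 (also called Irga6) load onto the vacuole membrane, and the regulators Irgm1, Irgm2 and Igtp (Irgm3) stay on the cell's own membranes and hold the effectors inactive there. Mx proteins block the growth of RNA viruses, but laboratory strains such as C57BL/6 carry disrupted copies of both Mx genes, which RefSeq lists as transcribed pseudogenes; the arrays measured their transcripts.

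As the members rose together (values below), their promoters were read for the letters of the 2 elements. RefSeq windows on GRCm38.p6, from 250 bases before to 50 after a transcription start, were found for 5 of the 10 members. The ISRE letters searched were GAAANNGAAA and the GAS letters TTCNNNGAA, on both strands and without mismatch. All 5 genes held an ISRE match, as did 3.44% of all 32851 windows of this length, and 2 of the 5 held a GAS match, as did 8.30% of all windows. Below are the 100 bases before the start in each gene, shown because they place the matches, with matches in capitals.
Gbp2, chr3:142620563-142620662, plus strand: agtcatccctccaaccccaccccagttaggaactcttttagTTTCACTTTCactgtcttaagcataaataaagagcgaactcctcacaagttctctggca
Gbp3, chr3:142559944-142560043, plus strand: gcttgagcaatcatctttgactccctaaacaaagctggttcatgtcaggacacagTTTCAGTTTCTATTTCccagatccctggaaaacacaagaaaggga
Irgm1, chr11:48871421-48871520, minus strand: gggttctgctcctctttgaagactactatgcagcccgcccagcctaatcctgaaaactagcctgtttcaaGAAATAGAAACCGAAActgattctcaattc
Irgm2, chr11:58214877-58214976, plus strand: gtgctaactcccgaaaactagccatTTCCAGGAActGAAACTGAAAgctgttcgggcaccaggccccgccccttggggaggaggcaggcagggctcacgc
Igtp, chr11:58199456-58199555, plus strand: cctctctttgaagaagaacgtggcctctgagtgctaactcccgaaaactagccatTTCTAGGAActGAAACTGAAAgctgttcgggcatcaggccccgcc
In Gbp2 and Gbp3 the ISRE letters lay on the opposite strand, and in Gbp3 and Irgm1 2 matches overlapped. A second start of Gbp3 in the table had a window with no match to either element. Irgm2 and Igtp, which lie close together on chromosome 11, carried the GAS letters ahead of the ISRE letters, 11 bases apart from start to start. Around this pair of elements, 63 of 65 bases were identical between the 2 genes. Either gene shared 21 of 65 bases with Irgm1, aligned without gaps on the first of the overlapping Irgm1 ISRE matches. That count depends on the alignment, and gaps or the second match were not tried. The letters gaaaactagcc stood ahead of the matches in Irgm1 as well as in Irgm2 and Igtp. A match is a match of letters only and was not tested for binding.

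Mean intensity per array ran from 593 to 1750, and 27.0 to 33.3% of probes were detected. On the brighter Gch1 probe, log2 values ran from 12.32 to 14.59 over the wild-type arrays and from 10.43 to 12.27 over the Gch1fl/flTie2cre arrays, with no overlap. All 7 macrophage marker genes on the array were detected on every array, and no marker of T cells, B cells, natural killer cells or erythroid cells was detected on 3 arrays. Of the other lists, Camp, Ltf and Ngp (neutrophil, 3 of 5 genes), Siglech (dendritic cell, 1 of 4), Kdr (endothelial, 1 of 5) and Dcn (stromal, 1 of 4) were detected on at least 3 arrays; the summed neutrophil level was lowest in wild-type at 24 h (log2 8.54) and highest in Gch1fl/flTie2cre at 2 h (10.31), and its part in the results was not tested. Animals 5 and 6, 1 of each genotype, stood apart from the other 4: over all tested probes, what set them off from their group means ran alike in both at each of the 4 times (r from 0.73 to 0.81). Results that rest on them are given with and without them.

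The GTPases rose together within 2 h in both genotypes. A probe was called at a Benjamini-Hochberg adjusted p under 0.05 over all tested probes and a fold over 1.5, and log2 differences are given ± standard error with n = 3 arrays per group. In wild-type macrophages 14 of the 15 member probes were higher at 2 h than at 0 h and 0 were lower, where 6.95% of all tested probes were higher and 8.39% lower, and all 8 detected genes had a higher probe. The member median was 1.71, beside −0.08 over all probes. In Gch1fl/flTie2cre macrophages 12 of 15 were higher and 0 lower (6.75% and 9.68% of all probes), with a median of 1.12 beside −0.07. Without animal 1 the latter count was 7.

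Among the guanylate-binding proteins, Gbp2 was measured by 3 probes. On ILMN_3047389, wild-type log2 values of 11.23, 10.90 and 10.59 before stimulation became 13.23, 12.97 and 13.20 after it, and Gch1fl/flTie2cre values were 11.59, 11.97 and 11.03 and then 13.14, 13.05 and 13.12. The times did not overlap in either genotype. The rise was 2.22 ± 0.42 (adjusted p = 0.00101) in wild-type and 1.57 ± 0.42 (adjusted p = 0.0132) in Gch1fl/flTie2cre, and the latter was not past the threshold without animal 1, 4 or 5. The brightest Gbp2 probe, ILMN_3122961, reached 93.5% of the brightest signal on an array and rose by 0.90 ± 0.18 in wild-type, and the third, ILMN_2605602, rose by 1.71 ± 0.30 and 1.38 ± 0.30. Gbp3 rose on both of its probes (ILMN_1244513 and ILMN_2918002), by 1.41 ± 0.24 and 1.43 ± 0.20 in wild-type and by 0.98 ± 0.24 and 0.86 ± 0.20 in Gch1fl/flTie2cre, although the first of these last values was not past the threshold without animal 1.

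Of the regulatory immunity-related GTPases, Irgm1 was measured by 3 probes that gave different sizes of change. Its dimmest probe, ILMN_2711172, went from 9.90, 9.28 and 9.16 at 0 h to 12.25, 12.11 and 11.88 at 2 h in wild-type, a rise of 2.63 ± 0.25 (adjusted p = 7.84e-07), and from 9.96, 10.42 and 10.26 to 12.01, 12.09 and 11.76 in Gch1fl/flTie2cre, a rise of 1.74 ± 0.25 (adjusted p = 7.63e-05). The middle probe rose by 1.34 ± 0.18 and 1.02 ± 0.18. The brightest probe, ILMN_2804037, lay at up to 92.3% of the brightest signal on an array, changed by 0.33 ± 0.12 and 0.26 ± 0.12, and was the 1 member probe not called in wild-type at 2 h. Irgm2 rose by 1.05 ± 0.19 in wild-type, while the 0.48 ± 0.19 of Gch1fl/flTie2cre did not pass (adjusted p = 0.0936). Igtp rose by 1.34 ± 0.24 and 0.81 ± 0.24, the latter not past the threshold without animal 1 or animal 5.

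The effector Iigp1, encoded on chromosome 18, was higher at 2 h on all 3 tested probes in both genotypes. Its probe ILMN_1247924 was not detected on any wild-type array at 0 h, with values of 5.65, 5.90 and 5.33, and reached 10.87, 9.81 and 10.42 at 2 h. This was at least 15.3-fold higher, taking each undetected array at the lowest detected value on that array or its own value where that was higher. The bound itself was not tested. The limma fit, which took the undetected arrays at their own values, gave an adjusted p of 0.00028. On ILMN_2585597, also undetected in wild-type at 0 h, the level was at least 5.14-fold higher. In Gch1fl/flTie2cre ILMN_1247924 was already detected in 2 of 3 animals at 0 h, at 6.35 and 7.51, with 5.70 in the third, and it was between 10.39 and 10.53 at 2 h (fitted difference 3.95 ± 0.78, with the undetected array at its own value). On ILMN_2612776, detected on 2 of 3 wild-type arrays at 0 h, the fitted differences were 2.47 ± 0.51 and 2.12 ± 0.51. In Gch1fl/flTie2cre ILMN_2585597 was detected on only 1 of 3 arrays at 0 h. Its fitted difference, with undetected arrays at their own values, was 2.68 ± 0.51.

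Mx1 rose by 1.81 ± 0.28 in wild-type at 2 h and by 1.12 ± 0.28 in Gch1fl/flTie2cre. In Gch1fl/flTie2cre the times overlapped, with animal 5 at 11.98 at 2 h and animal 4 at 12.02 at 0 h. That call was lost without animal 1 or animal 4. Mx2 rose by 1.83 ± 0.26 (adjusted p = 7.07e-05) and 1.15 ± 0.26 (adjusted p = 0.00458), and without animal 1 the latter was 0.76 and not past the threshold.

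**Figure D1:**
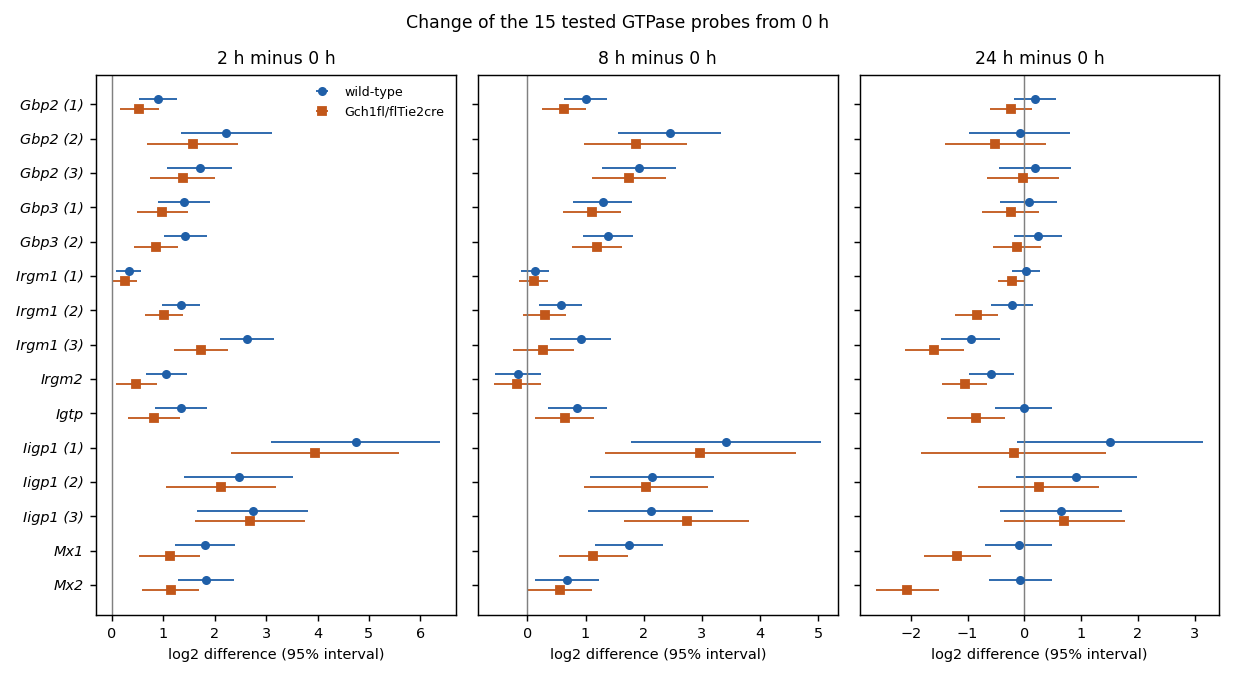
Log2 difference from 0 h of each tested GTPase probe at 2, 8 and 24 h, for wild-type (circles) and Gch1fl/flTie2cre (squares) macrophages; points are estimates from the fit, bars are unadjusted 95% intervals, and numbers in brackets order the probes of a gene from brightest to dimmest. All 30 estimates at 2 h lie above 0, and at 24 h 7 of 15 estimates lie below 0 in wild-type and 13 of 15 in Gch1fl/flTie2cre.

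Most member probes were still above their starting level at 8 h. At that time, 12 of 15 probes were still above 0 h in wild-type and 0 below it (14.7% and 16% of all probes) with a median of 1.29 beside −0.03 over all probes, and 10 of 15 and 0 in Gch1fl/flTie2cre (15.9% and 17.9%) with a median of 1.11 beside −0.04. Against 2 h, 4 probes had fallen in wild-type (16.9% of all probes were lower) and 3 in Gch1fl/flTie2cre (18%), and 0 had risen in either (19% and 20.1% of all probes). The probes that fell in wild-type were those of Mx2, by 1.14 on the log2 scale, of Irgm2, by 1.22, and of Irgm1, by 0.77 and 1.72. Those that fell in Gch1fl/flTie2cre were of Irgm2, by 0.65, and of Irgm1, by 0.72 and 1.47, of which the Irgm2 call was lost without animal 4 or animal 5 and the first Irgm1 call without animal 1. For the other probes the wild-type difference between 2 and 8 h did not pass: it was 0.10, 0.22 and 0.21 for Gbp2, −0.11 and −0.04 for Gbp3, −0.06 for Mx1, −0.49 for Igtp, −1.32, −0.32 and −0.61 for Iigp1, and −0.20 for the brightest Irgm1 probe. Differences between members in this course were not tested.

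Irgm2 was no longer called above 0 h at 8 h in wild-type, with 12.55, 12.56 and 12.72 against 12.77, 12.63 and 12.90 at 0 h, which overlapped (difference −0.16 ± 0.19, adjusted p = 0.540). Mx2 stood at 12.33, 11.87 and 12.45, above 11.65, 11.14 and 11.80 at 0 h without overlap, but by 0.69 ± 0.26 with an adjusted p of 0.0497, which did not hold without any 1 of animals 1, 2, 3, 4 and 6. Mx1 was still at 12.76, 12.40 and 12.91, against 11.13, 10.61 and 11.09 at 0 h. Iigp1 ILMN_1247924 was at 8.73 and 8.27 in wild-type animals 2 and 3 and at 10.14 in animal 6, and at 8.58, 9.62 and 10.29 in Gch1fl/flTie2cre animals 1, 4 and 5, so that animal 4 lay nearer to animal 5 than to animal 1. Without animals 5 and 6 its fall from 2 to 8 h was called in both genotypes, at −1.85 and −1.41. The counts of lower member probes became 7 in wild-type and 4 in Gch1fl/flTie2cre, where 1 Gbp2 probe was then higher. The shares of all probes called in that fit are not given here, so these counts too have no background.

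**Figure D2:**
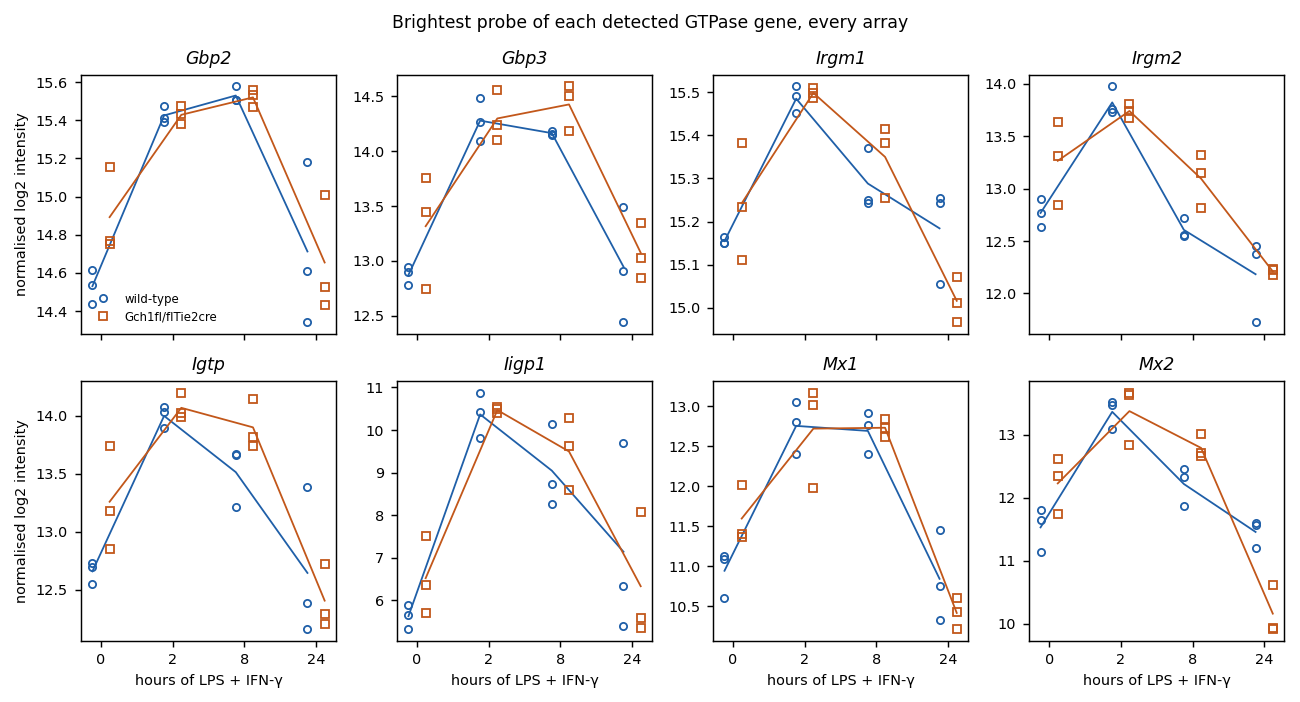
Normalised log2 intensity of the brightest tested probe of each detected GTPase gene on all 24 arrays, for wild-type (circles) and Gch1fl/flTie2cre (squares) macrophages, with lines joining the group means; times are evenly spaced and not to scale, and each panel has its own vertical range that does not start at 0. From 2 to 8 h Irgm2 was called lower in both genotypes and Mx2 in wild-type (−1.14), while the −0.58 of Mx2 in Gch1fl/flTie2cre did not pass.

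By 24 h no member probe was called above its level before stimulation. From 8 to 24 h, 11 of 15 probes fell in wild-type (13% of all probes were lower; 7 of 15 without animal 3) and 14 of 15 in Gch1fl/flTie2cre (14.1%), and 0 rose (15% and 16.7%), with medians of −1.22 and −1.78 beside 0.02 and 0.02 over all probes. Against 0 h, 0 of 15 probes were higher in either genotype at 24 h, where 16.5% and 16.8% of all probes were higher. In wild-type 1 probe was lower than at 0 h (15.8% of all probes were lower), Irgm1 ILMN_2711172 at −0.95 ± 0.25 (adjusted p = 0.00614), a call lost without animal 2 or animal 3, and the median was 0.03. In Gch1fl/flTie2cre 6 of 15 were lower (15.8%), from 5 genes, and the median was −0.24. The share of members lower in Gch1fl/flTie2cre was above that background and the share in wild-type below it. However, the difference between genotypes in this change was called for 0 of 15 probes. The median genotype difference, Gch1fl/flTie2cre minus wild-type, was 0.03 at 24 h and 0.50 at 0 h, with 0 of 15 probes called at either time.

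The 5 genes below their starting level in Gch1fl/flTie2cre at 24 h were the 3 regulators and both Mx genes. Mx2 went from 11.74, 12.61 and 12.34 at 0 h to 9.92, 9.94 and 10.62 at 24 h, a fall of 2.06 on the log2 scale (standard error 0.26, adjusted p = 7.48e-06) in 3 of 3 animals. Mx1 went from 11.37, 12.02 and 11.40 to 10.22, 10.42 and 10.61, a fall of 1.18 (standard error 0.28, adjusted p = 0.00298), which was 0.97 and not past the threshold without animal 4. Irgm2 fell by 1.05, and Irgm1 by 0.84 on ILMN_1234539 and by 1.58 on ILMN_2711172. Igtp fell by 0.85 (adjusted p = 0.00937), but by 0.51 and not past the threshold without animal 4, whose 0 h value of 13.74 was the highest of its group against 12.85 and 13.18. In wild-type the corresponding differences were −0.07 for Mx2, −0.10 for Mx1, −0.58 for Irgm2, −0.01 for Igtp and −0.22 for Irgm1 ILMN_1234539, none of them called, while Irgm1 ILMN_2711172 was called lower in wild-type too (−0.95).

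At 24 h the animals of a genotype lay far apart on some Gbp2 and Iigp1 probes and close together on others, such as Irgm2 in Gch1fl/flTie2cre at 12.22, 12.17 and 12.24. Gbp2 ILMN_3047389 was at 10.21, 9.97 and 12.29 in wild-type, the last being animal 6, and at 10.67, 10.51 and 11.89 in Gch1fl/flTie2cre, the last being animal 5. Iigp1 ILMN_1247924 was at 6.35, 5.39 and 9.69 in wild-type and at 5.34, 5.59 and 8.06 in Gch1fl/flTie2cre, and it was undetected in animals 3, 1 and 4. Animal 6 was the highest wild-type animal on 12 of 15 probes and animal 5 the highest Gch1fl/flTie2cre animal on 13 of 15, whereas at 0 h they were highest on 5 and 1. Without these 2 animals the Gbp2 probe was below its 0 h level in both genotypes, by −0.98 in wild-type and −1.19 in Gch1fl/flTie2cre. In that fit 2 wild-type and 9 Gch1fl/flTie2cre member probes were called lower than at 0 h. The shares of all probes called in it are not given here, so these counts have no background beside them.

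**Figure D3:**
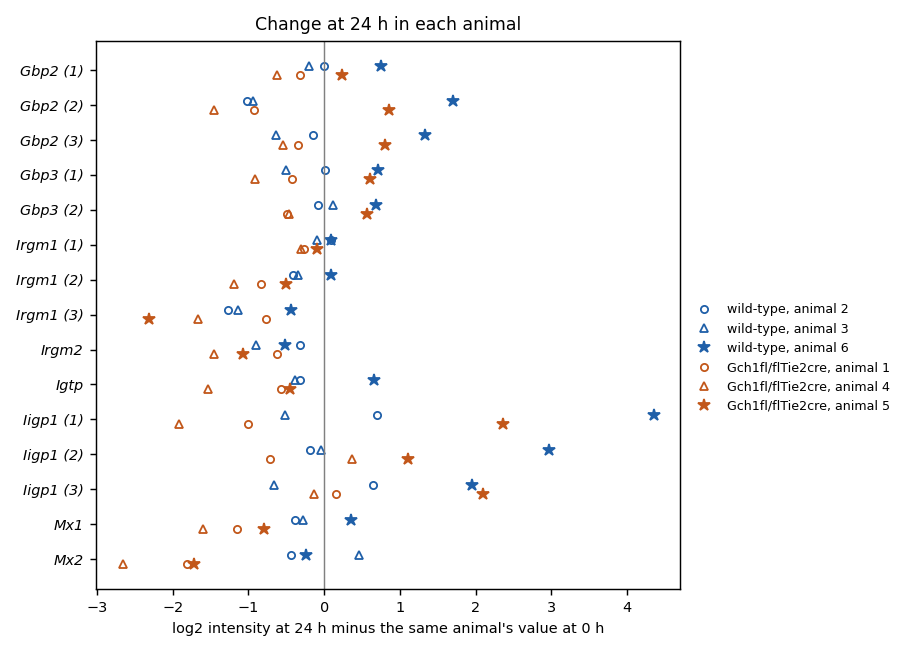
Log2 intensity at 24 h minus the value of the same animal at 0 h, for each tested GTPase probe (rows) and each animal (wild-type blue, Gch1fl/flTie2cre orange; stars mark animals 6 and 5). The stars are the rightmost of their genotype for the Gbp2, Gbp3, Iigp1, Igtp and Mx1 probes and for every Irgm1 probe but the dimmest. For the Gbp2, Gbp3 and Iigp1 probes they also lie above 0 in both genotypes. All 3 Gch1fl/flTie2cre animals lie below 0 for Mx2, Mx1, Irgm2, Igtp and every Irgm1 probe. All 3 wild-type animals also lie below 0 for Irgm2 and the dimmest Irgm1 probe.

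Gbp4 and Gbp6 gave no signal above background at any time. Their probes had log2 values of 4.70 to 5.16 and 4.73 to 5.11, and their lowest detection p-values over 24 arrays were 0.303 and 0.341. With 1 probe each, a probe that does not bind its transcript and a transcript that is too scarce cannot be told apart.

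In the fit without pairs across genotypes, no member probe was called between them. By limma, 0 of 15 were called at 0, 2, 8 or 24 h, where the shares of all probes called lower were 0.0242%, 0.0242%, 0.0182% and 0.224% in that order of times, and those called higher were 0% at the first 3 times and 0.097% at the last. At an unadjusted p under 0.05 the member counts were 6, 0, 1 and 1 of 15, beside 1.65%, 2.57%, 4.61% and 9.36% of all probes. At 0 h all 15 estimates were above 0, as were 48.8% of all probes, with a median of 0.50 beside −0.01 over all probes, and 7 of 15 had no overlap between genotypes (3.79% of all probes in this direction). The 6 with an unadjusted p under 0.05 were on Gbp3, Irgm1, Irgm2, Igtp, Mx1 and Mx2, each with an adjusted p of 1.00. Animal 4 was the highest Gch1fl/flTie2cre animal on 14 of the 15 probes at 0 h, and without its 0 h array 14 estimates were above 0 and the median was 0.34. For Irgm1 ILMN_2711172 the values were 9.90, 9.28 and 9.16 in wild-type and 9.96, 10.42 and 10.26 in Gch1fl/flTie2cre, which did not overlap (0.77, 95% interval 0.21 to 1.33). At 2 h the median was 0.01, at 8 h it was 0.26 with 14 of 15 above 0 (49.4% of all probes), and at 24 h it was 0.03 with 8 of 15 above 0 (49.3%).

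Mx2 had the lowest adjusted p of the members between genotypes. At 24 h its values were 11.21, 11.60 and 11.56 in wild-type and 9.92, 9.94 and 10.62 in Gch1fl/flTie2cre. Every Gch1fl/flTie2cre array was below every wild-type array, by 1.29 on average (95% interval of the difference −1.88 to −0.71), and the adjusted p of 0.0508 lay just outside the threshold. It was 0.0200 with a term for the set of animals 5 and 6, 0.0149 without animal 5 and 0.0207 without animals 5 and 6, and it was 0.556 without animal 3 and 0.845 in a fit of the 24 h arrays alone, so that the call rests on the setting. For the other 14 probes the 24 h differences ran from −0.81 to 0.20. The test of whether the change from 0 to 24 h differed between genotypes gave −1.99 ± 0.37 for Mx2 with an adjusted p of 0.0891, and it shares the 0 h and 24 h arrays with the 2 genotype differences above. Of the difference in response, 0 of 15 probes were called by limma at 2, 8 or 24 h (0% of all probes at 2 and 8 h, 0.0121% lower at 24 h), with 2, 0 and 4 of 15 at an unadjusted p under 0.05 (1.36%, 2.21% and 5.79% of all probes).

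**Figure D4:**
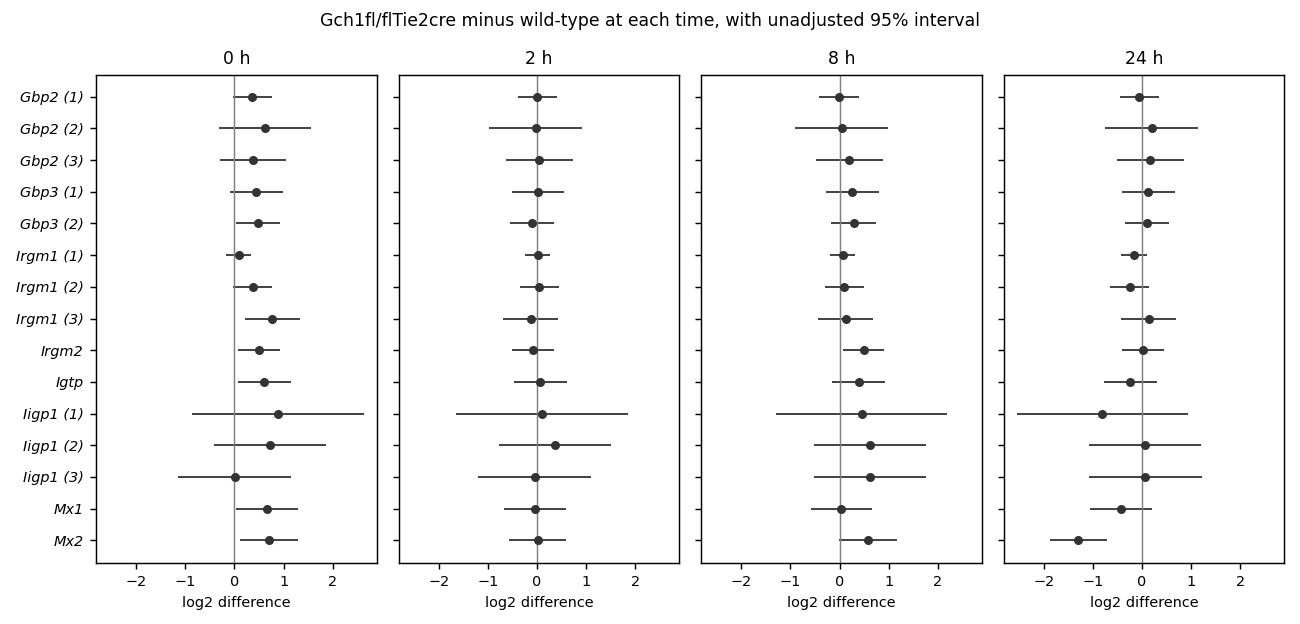
Gch1fl/flTie2cre minus wild-type log2 difference of each tested GTPase probe at 0, 2, 8 and 24 h, with unadjusted 95% intervals from the fit of all 24 arrays. All 15 points lie above 0 at 0 h, and Mx2 at 24 h (−1.29) stands apart from the other 14; no probe passed the adjusted threshold.

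Of 18 further interferon-inducible GTPases, 11 were tested, each by its brightest probe, and they too were higher at 2 h and lower from 8 to 24 h. At 2 h all 11 were higher in wild-type (6.56% of all genes were higher; list median 1.56 beside −0.10) and 8 in Gch1fl/flTie2cre (6.31%; 1.21 beside −0.10). From 8 to 24 h 8 fell in each genotype (12.4% and 13.7% of all genes), and 0 were called between genotypes. The largest wild-type rises at 2 h were of Tgtp1 (2.45 ± 0.43) and Gbp10 (2.41 ± 0.22), and the 8 h level of Gbp10 was still 2.43 ± 0.22 above 0 h. Gm12250, an immunity-related GTPase, fell by 1.45 from 2 to 8 h in wild-type, as Irgm1 and Irgm2 did.

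Of 14 tested receptors, kinases and factors of the interferon pathway, 4 were higher and 1 lower at 2 h in wild-type (6.56% and 9.63% of all genes), and 3 higher and 0 lower in Gch1fl/flTie2cre (6.31% and 10.7%), with medians of 0.31 and 0.18 beside −0.10 over all genes in each. Ifnb1, the type I interferon that macrophages secrete, rose by 4.50 ± 0.85 and 4.75 ± 0.85, and Irf8, a macrophage IRF, by 3.40 ± 0.30 and 3.46 ± 0.30; both fell again by 8 h. Jak2, a kinase of the IFN-γ receptor, rose by 1.51 ± 0.26 and 1.34 ± 0.26. Irf7 rose late and, unlike the members, stayed up, at 2.80 ± 0.18 and 2.00 ± 0.18 above 0 h at 24 h. Ifngr1, the ligand-binding chain of the IFN-γ receptor, was lower at 8 h by 1.93 and 1.68 on the log2 scale, having fallen by 1.64 and 1.62 since 2 h.

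Of 10 inhibitors of the pathway, 4 were higher and 1 lower at 2 h in wild-type, and 3 higher and 2 lower in Gch1fl/flTie2cre, against the same shares of all genes (6.56% higher and 9.63% lower, and 6.31% and 10.7%). Socs1, which blocks JAK kinases, rose by 3.20 ± 0.29 and 2.98 ± 0.29 and Ptpn2, a phosphatase that acts on JAK kinases, by 1.72 ± 0.32 and 1.58 ± 0.32. Usp18, an inhibitor of type I interferon signalling, was at 1.29 ± 0.19 and 0.89 ± 0.19 at 8 h. Of 14 vacuole and autophagy partners, 1 was higher and 2 lower at 2 h in wild-type, and 0 higher and 2 lower in Gch1fl/flTie2cre, which is near those shares. Atg5, needed to join LC3-type proteins to membranes, fell by 0.77 in each and was above 0 h at 24 h, by 1.33 ± 0.16 and 1.41 ± 0.16. Sqstm1, the autophagy receptor p62, was the 1 gene of the 4 lists called between genotypes, lower at 24 h in Gch1fl/flTie2cre by 0.96 (standard error 0.20, adjusted p = 0.0423), where 0.270% of all genes were called lower.

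By Pearson correlation over the 8 group means, which share arrays, fit and the common response to stimulation, the 5 genes most like the members' mean pattern were Ccl12 (r = 0.987), Tgtp1 (0.986), Acer1 (0.985), Batf2 (0.984) and 4933404K08Rik (0.982), of 8867 genes compared. Over the 24 arrays Tgtp1 came first (r = 0.979), followed by Nlrc5 (0.967), Ifi47 (0.957), Il27 (0.955) and Batf2 (0.950), and Acer1 and 4933404K08Rik dropped to 0.757 and 0.718. For single members the closest over group means were Ppa1 for Gbp2, Gbp7 for Gbp3, Marchf5 for Irgm1 and Mx2, Gm12250 for Irgm2, Themis2 for Igtp, Nod1 for Iigp1 and Nlrc5 for Mx1, at r from 0.980 to 0.994. These are descriptions of 8 points and carry no test.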

How the data were processed

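Macrophage RNA of 24 samples was measured on single-colour bead arrays. The authors extracted the values with GenomeStudio and deposited probe intensities that were not normalised, a detection p-value for each, and processed values on a log2 scale after variance stabilisation with limma under R 2.14, per the submitters' processing notes; annotation build is not given in the sources used here. No deposited column of values was left without a sample.

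Deposited intensities were background-corrected with neqc of limma 3.58.1 (R 4.3.3, statmod 1.5.0), using the detection p-values and an offset of 16, then quantile normalised and put on the log2 scale. The 16498 probes were fitted with 8 group means, treating arrays of 1 animal as correlated, and Benjamini-Hochberg adjustment ran over all of them. The replicate number is the animal, which the labels give at all 4 times; deviations of 1 animal at different times correlated at a median r of 0.26, against −0.01 between different animals, and the consensus correlation was 0.124. The study calls its data paired and used matched littermates, but the labels give no pairs across genotypes, so none were fitted; a term for the set of animals 5 and 6 was an alternative. The number of arrays limits the precision. A single set of 3 animals underlies each group. P-values rest on the spread between arrays of these animals, pooled over the 8 groups and drawn towards that of other probes. They do not measure the spread within any 1 group. Of 45281 probes, 34885 had 1 gene, 18 several and 10378 none in the annotation used.

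The members, lists and tests were chosen with earlier results of these data known. Named were all 10 members with every tested probe, Gch1, up to 4 called genes per list and contrast with the largest fold, the 5 genes most like the members' mean and the 1 most like each member. Lists used the brightest tested probe of a gene. Promoters came from RefSeq (GRCm38.p6). Scripts were tested on simulated data. Member proteins and the promoters of Gbp4, Gbp6, Iigp1, Mx1 and Mx2 were not analysed here. Alternatives tried were the deposited processed values, other background, offset, normalisation and filter settings, array weights, other blocks, single time points, other probes of a gene, and each animal left out; 2 fits, without animals 5 and 6 and without the 0 h array of animal 4, were added after seeing the data.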

Additional observations from a re-analysis of the deposited data

How the results depend on the processing

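Of 4590 repeats of a single member result under another setting, 4470 kept their call or lack of one, 63 lost the call and 57 gained one, and 187 of 2967 uncalled differences changed sign. Counts of member probes called moved as follows, and the cause was not tested. For these and the other counts with animals left out, the shares of all probes called under the same setting are not given. Whether calls over the whole array moved alike therefore cannot be read from them. The wild-type 24 h count of 1 became 3 with array weights, whose estimation stopped before converging, 2 with no fold threshold and 2 without animals 5 and 6, and it was 0 to 1 with 1 animal left out. Without animals 5 and 6 the 8 h against 2 h counts became 7 for 4 in wild-type and 5 for 3 in Gch1fl/flTie2cre. With 1 animal left out, the wild-type 24 h against 8 h count ran from 7 to 12 and the Gch1fl/flTie2cre 2 h count from 7 to 12. Array weights called 1 probe between genotypes at 0 h (Mx1). At 24 h, 1 probe (Mx2) was called for 0 under quantile normalisation without background correction, offset 50, detection on 6 arrays, no replicate block, array weights, a term for animals 5 and 6, and without these animals, and 0 to 1 with 1 animal left out; its adjusted p ran from 0.000227 to 0.845. The 24 h difference in response gave 3 calls with array weights, 1 without background correction, 1 without animals 5 and 6, and 0 to 1 with 1 animal left out. The animal as a fixed replicate block left the Gch1fl/flTie2cre 24 h count at 6 and changed no count by over 1.5 times. For Irgm1 in wild-type at 24 h, the dimmest probe gave −0.95 where the brightest gave 0.03. In the deposited processed values the median of all probes shifted by −0.12 at 2 h in Gch1fl/flTie2cre, where the member median was 1.22. Signal over background limits the Iigp1 values before stimulation, and wild-type rises from them are bounds on ILMN_1247924 and ILMN_2585597. The brightest Gbp2 and Irgm1 probes lay near the top of the scale.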
